A study of Mus musculus with 6 samples.

Results

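The genes described here are p53 and 8 of its target genes, taken by symbol from a table of 16472 genes: Trp53, which encodes the transcription factor p53, and Cdkn1a, Mdm2, Ccng1, Sesn1, Phlda3, Gdf15, Trp53inp1 and Zmat3. All 9 of 9 symbols were found. The cells were HT22, an immortalised line of mouse hippocampal origin, and the 6 mRNA libraries fall into 2 groups. In one group, 3 cultures received AA147, a small molecule known to switch on ATF6, a sensor of protein misfolding in the endoplasmic reticulum, and the oxidative stress regulator NRF2, for 16 h at a dose that the labels give as 10 mM. In the other, 3 cultures received the vehicle DMSO for 16 h. The unit of the AA147 dose could not be checked here and may be a slip in the labels. Nothing in the labels says whether the cultures of a group were grown separately, so the p-values may measure technical spread only. HT22 is a single clonal line, and its parent line was immortalised with a viral large T antigen, a protein known to bind p53.

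p53 is a transcription factor that is kept low by the ubiquitin ligase MDM2 and accumulates after DNA damage and other stresses, mostly through protein stability and not through its own mRNA. It binds DNA elements made of a pair of half-sites and raises the transcription of genes for cell cycle arrest, feedback, metabolism, DNA repair and cell death. Mdm2 is itself a target, which closes a feedback loop. Several of these genes also answer to other regulators: Gdf15, for example, is known as a target of the integrated stress response.

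The values come from the authors' deposited table, which gives per gene the normalized count averaged over the 6 libraries and a log2 fold change with its standard error (SE). It holds no value for a single library, so the spread within a group cannot be shown and overlap between the groups cannot be read. The depth of each library is unknown, and the means sum to 30768012, the size of an average library after scaling. The numerator of the fold change is not named. Every direction below rests on reading it as AA147 over vehicle. A gene is called when its deposited adjusted p is under 0.05, and intervals are 95% intervals computed from the SE. Of 9 neuron markers, Tubb3 had a mean of 1199 and was called positive at 0.43 (adjusted p 5.67e-05) per the authors' deposited table. The symbols of the other 8, among them Rbfox3, Map2 and Dcx, were not found. All 5 fibroblast markers were measured, with means from 181 to 254004 in the authors' deposited table, and all 5 were called negative, from -1.52 to -0.81. Among all genes tested, 11.1% were called negative, and 29.7% of those with a mean of 10000 or more, where Col1a1, Col1a2 and Col3a1 lie. Whether cells with the fibroblast transcripts were fewer or held less of this RNA cannot be told apart in bulk RNA. Their part in the p53 results was not tested.

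Promoter sequences from RefSeq (mouse build GRCm38.p6) cover 7 of the 9 genes in 10 windows, each running from 250 bases before to 50 bases after an annotated start. Trp53inp1 and Zmat3 have no window here. The windows of Cdkn1a and Ccng1 are printed because they held a match to the full p53 consensus element, and these genes differ in their values below. The element was searched for by name as a pair of consensus half-sites, with at most 13 bases between them and at most 1 mismatch outside the central C and G. The consensus is its own reverse complement, so a single search covers both strands. Such a match lay in 206 of all 32851 windows, or 0.627%, and one without mismatch in 24, or 0.0731%. The motif was chosen with the fold changes known. Capitals mark the half-sites.
Cdkn1a upstream start, chr17:29090729-29091028, plus strand: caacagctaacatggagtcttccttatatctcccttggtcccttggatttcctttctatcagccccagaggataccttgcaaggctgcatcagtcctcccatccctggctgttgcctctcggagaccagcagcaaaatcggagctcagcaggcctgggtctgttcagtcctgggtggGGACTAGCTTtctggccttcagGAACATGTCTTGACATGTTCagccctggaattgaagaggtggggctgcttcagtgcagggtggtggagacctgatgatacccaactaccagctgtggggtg
Ccng1, chr11:40755237-40755536, minus strand: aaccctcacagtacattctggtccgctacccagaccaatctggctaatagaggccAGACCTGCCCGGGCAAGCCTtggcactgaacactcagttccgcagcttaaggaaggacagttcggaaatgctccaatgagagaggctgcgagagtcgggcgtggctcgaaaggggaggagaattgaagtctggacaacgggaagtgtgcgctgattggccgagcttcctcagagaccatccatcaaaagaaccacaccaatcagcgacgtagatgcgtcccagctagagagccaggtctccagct

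In the Cdkn1a window, the capitals form 2 overlapping matches that share a half-site. GGACTAGCTT and GAACATGTCT are 12 bases apart without mismatch, and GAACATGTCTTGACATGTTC is a continuous element with 1 mismatch, at positions -51 to -32 relative to the start. The annotated start used by the other Cdkn1a window lies 2790 bases downstream, and that window held no half-site. In the Ccng1 window, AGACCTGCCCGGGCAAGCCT is a continuous element with 1 mismatch, at positions -195 to -176. A single half-site without mismatch lay in the windows of Mdm2 (GAACTTGCCT) and Trp53 (GGACTTGCCC) and in the downstream window of Sesn1 (AAGCTTGTTT), where 8.36% of all windows held at least 1. The windows of Phlda3 and Gdf15 held none. The p53-responsive promoter of Mdm2 is known to lie inside the gene, outside this window. The core of the antioxidant response element used by NRF2 (TGACNNNGC, both strands) lay in the Trp53 window and in the downstream Cdkn1a window, and in 12.4% of all windows. The core of the ATF4 element (TGATGNAA, both strands) lay in none of the 10 windows, against 3.97% of all windows. These matches describe letters in short windows and say nothing about binding in HT22 cells.

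Of the 9 genes, 4 were called positive, 1 was called negative and 4 were not called in the authors' deposited table. Across all 13597 genes with an adjusted p, 9.05% were called positive, 11.1% negative and 20.2% in either direction. The CDK inhibitor gene Cdkn1a, the p53 antagonist gene Mdm2, the p53 cofactor gene Trp53inp1 and the secreted factor gene Gdf15 rose with AA147. The leucine-sensing metabolic regulator gene Sesn1 fell. Trp53 itself, Ccng1, Phlda3 and Zmat3 did not pass the test. For the 9 genes, the median change on the log2 scale was 0.14 in the authors' deposited table, beside 0.01 over all genes tested. That median is the value of Trp53 itself, and the 9 values ran from -0.34 to 2.76. The genes were chosen with earlier results of these data known, so these counts are a description of them. The calls of Gdf15, Trp53inp1 and Sesn1 were lost with a Bonferroni adjustment, and only Cdkn1a was called against a null that allows changes of up to 0.25.

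**Figure D1:**
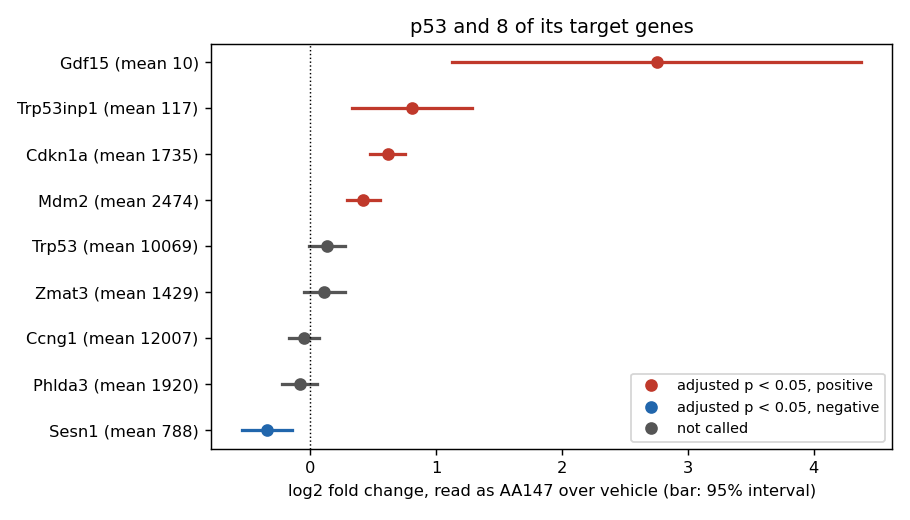
Log2 fold change of p53 and 8 target genes (x axis, read as AA147 over vehicle), ordered by value, with the mean normalized count in brackets; points are the authors' estimates and bars are 95% intervals. The intervals of Cdkn1a, Mdm2, Trp53inp1 and Gdf15 lie above 0, that of Sesn1 lies below 0, and those of Trp53, Zmat3, Ccng1 and Phlda3 include 0.

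Trp53 mRNA was abundant. Its mean was 10069 normalized counts in the authors' deposited table, higher than that of 97.2% of all genes, or 5443 per kilobase of its canonical transcript. The log2 fold change was 0.14 (SE 0.072, interval -0.01 to 0.28) and was not called (adjusted p 0.187 per the authors' deposited table). At face value this corresponds to averages of 9597 with vehicle and 10541 with AA147, a 1.10-fold difference with an interval of 0.996 to 1.21. The interval leaves room for a rise of up to that size, and the value was called when a trend on transcript length, GC content and expression was subtracted (0.20, adjusted p 0.0312). The first exons of Trp53 overlap those of Wrap53 on the opposite strand, over 263 bases or 3.56% of the exonic bases of Trp53, and the libraries were not stranded. Wrap53, which encodes a telomerase assembly factor, had a log2 fold change of 0.02 (SE 0.079, adjusted p 0.931) per the authors' deposited table. The mRNA level does not measure p53 protein or its activity.

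Mdm2 and Ccng1 act in the feedback on p53. Mdm2, which encodes the ligase that marks p53 for degradation, had a mean of 2474 normalized counts and a log2 fold change of 0.42 (SE 0.067, interval 0.29 to 0.55, adjusted p 1.35e-08) per the authors' deposited table. At face value its average went from 2115 with vehicle to 2833 with AA147, or 1.34-fold (interval 1.22 to 1.47). Among the 3926 genes with a mean within a factor of 2 of its own, 98.7% had a lower fold change. An antisense transcript, Gm56970, shares 348 exonic bases with Mdm2, 4.51% of its exonic bases, and the symbol of Gm56970 was not found. Mdm4, the paralog of Mdm2 that blocks p53 without ligase activity of its own, lay at 0.15 (SE 0.082, interval -0.01 to 0.31, adjusted p 0.207) per the authors' deposited table and was not called. Ccng1 encodes cyclin G1, a p53 target that recruits a phosphatase to MDM2. It was the most abundant of the 9 genes, with a mean of 12007 normalized counts, or 3419 per kilobase, and a log2 fold change of -0.05 (SE 0.060, interval -0.16 to 0.07, adjusted p 0.668) per the authors' deposited table. Cdkn1a and Ccng1 both hold a match to the full p53 consensus near an annotated start, for Cdkn1a only the upstream start. Their intervals, 0.48 to 0.76 for Cdkn1a and -0.16 to 0.07 for Ccng1, do not overlap. That difference was not tested, because a test would need values per library. Its paralog Ccng2 lay at 0.10 (SE 0.119, adjusted p 0.615) per the authors' deposited table. The 3' end of Nudcd2 on the opposite strand shares 114 exonic bases with Ccng1, and its log2 fold change was 0.06 (SE 0.072, adjusted p 0.629) per the authors' deposited table.

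Cdkn1a showed the smallest adjusted p of the 9 genes. It encodes p21, which inhibits cyclin-dependent kinases and is the main arm of p53-dependent arrest. Its mean was 1735 normalized counts and its log2 fold change was 0.62 (SE 0.071, interval 0.48 to 0.76, adjusted p 1.81e-16) per the authors' deposited table. The implied averages were 1369 with vehicle and 2101 with AA147, or 1.53-fold (interval 1.39 to 1.69). Only 20 of the 4323 genes with a mean within a factor of 2 had a higher fold change, and by adjusted p the gene ranked 170 among the genes tested. The antisense transcript annotated as Dino shares 504 exonic bases with Cdkn1a, 8.34% of its exonic bases. The symbol of Dino was not found, and reads from the pair cannot be told apart without strand. Cdkn1b, the paralog that encodes p27, fell, with a log2 fold change of -0.25 (SE 0.086, interval -0.42 to -0.09, adjusted p 0.0193) per the authors' deposited table. The intervals of these CDK inhibitor genes lie on opposite sides of 0, and a test of their difference would need values per library.

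**Figure D2:**
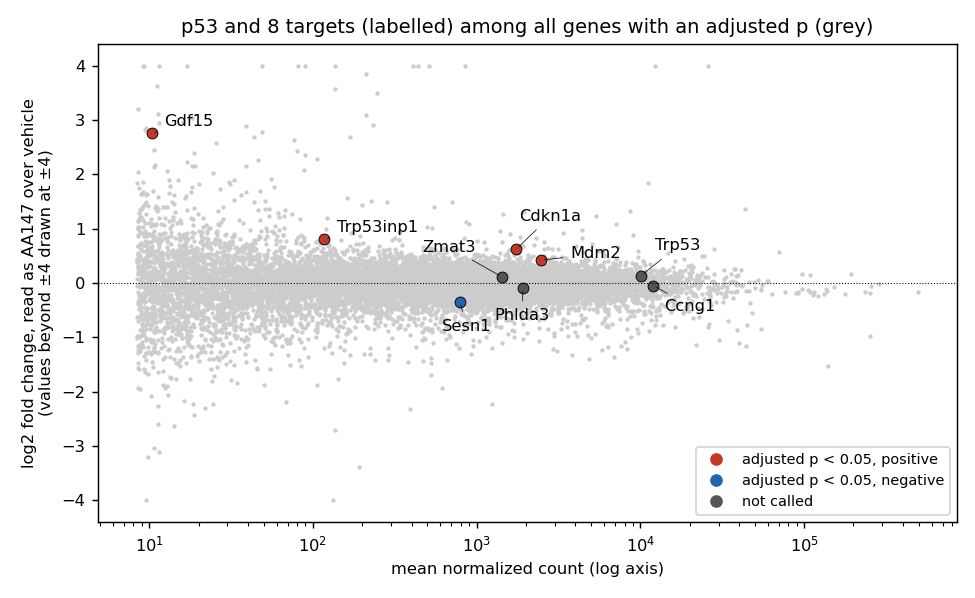
Log2 fold change (y axis, read as AA147 over vehicle, values beyond 4 in either direction drawn at that limit) against mean normalized count (log x axis) for the 13597 genes with an adjusted p, in grey, with p53 and 8 target genes labelled. Cdkn1a at 0.62 and Mdm2 at 0.42 sit near the upper edge of genes of their abundance, while Gdf15 and Trp53inp1 lie in the wider spread at low means.

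Trp53inp1 and Gdf15 had the largest fold changes and the widest intervals. Trp53inp1 encodes a nuclear cofactor that favours p53 phosphorylation and also acts in autophagy. Its mean was 117 normalized counts and its log2 fold change was 0.81 (SE 0.243, interval 0.33 to 1.29, adjusted p 0.00702) per the authors' deposited table. At face value the averages were 85.0 with vehicle and 149 with AA147, or 1.75-fold with an interval of 1.26 to 2.44. Its paralog Trp53inp2, an autophagy factor, was measured at -0.26 (SE 0.143, interval -0.54 to 0.02, adjusted p 0.198) per the authors' deposited table and was not called.

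Gdf15 encodes a secreted member of the TGF-beta superfamily that rises under many stresses. It was close to the limit of detection: its mean was 10.3 normalized counts, and every gene without an adjusted p had a mean of at most 8.41 in the authors' deposited table. The log2 fold change was 2.76 (SE 0.830, interval 1.13 to 4.38, adjusted p 0.00726) per the authors' deposited table. At face value the averages were 2.67 with vehicle and 18.0 with AA147, so the 6.75-fold difference (interval 2.19 to 20.8) rests on very few reads. Among the 1917 genes with a mean within a factor of 2, 99.1% had a lower fold change. An antisense transcript, Gm34154, shares 17.3% of the exonic bases of Gdf15. Of 8 genes of the integrated stress response, which is known to raise Gdf15, 5 were called negative and 0 positive, with a median of -0.51 per the authors' deposited table beside 0.01 over all genes tested. Of all genes tested, 11.1% were called negative, and 29.7% of those with a mean of 10000 or more, where Atf4, Atf5, Asns and Psat1 lie. Of the 5 called genes of this response, Trib3, with a mean of 877, lay at -0.62 (adjusted p 1.13e-10). Atf5 lay at -0.52 (adjusted p 6.24e-11) and Atf4, the regulator itself, at -0.51 (adjusted p 2.67e-15), all per the authors' deposited table. Chac1 at -0.26 and Ppp1r15a at 0.24 were not called in the authors' deposited table (adjusted p 0.0841 and 0.0959). The list was written with earlier results of these data known. A link between this response and the value of Gdf15 was not tested.

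Sesn1 was the called negative gene. It encodes sestrin 1, which restrains the growth kinase complex mTORC1 when leucine is scarce. The authors' deposited table gave it a mean of 788 normalized counts and a log2 fold change of -0.34 (SE 0.100, interval -0.54 to -0.15, adjusted p 0.00540). The implied averages were 881 with vehicle and 695 with AA147, or 0.789-fold (interval 0.689 to 0.904). The other sestrins did not pass the test: Sesn2 was at -0.09 (SE 0.078, adjusted p 0.467) and Sesn3 at 0.05 (SE 0.137, adjusted p 0.842) per the authors' deposited table. Sesn1 shares 548 exonic bases, 10.9% of its own, with the divergent neighbour Cep57l1, a centrosomal protein gene at 0.11 (SE 0.113, adjusted p 0.546) per the authors' deposited table.

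Phlda3 and Zmat3 were well measured and not called. Phlda3 encodes a small lipid-binding protein that competes with the survival kinase AKT at the membrane, and Zmat3 encodes an RNA-binding zinc finger protein that acts on splicing. Phlda3 had a mean of 1920 and a log2 fold change of -0.08 (SE 0.070, interval -0.22 to 0.05, adjusted p 0.457) per the authors' deposited table. Zmat3 had a mean of 1429 and a log2 fold change of 0.11 (SE 0.082, interval -0.05 to 0.27, adjusted p 0.382) per the authors' deposited table. The upper ends of these intervals lie below the lower end of the Cdkn1a interval, as does that of Trp53. Their paralogs were close to 0 or small: Phlda1 was at 0.06 (adjusted p 0.685), Zmat1 at -0.10 (adjusted p 0.722) and Zmat5 at 0.10 (adjusted p 0.661) per the authors' deposited table. Zmat2, a splicing factor gene, was called at 0.27 (SE 0.097, adjusted p 0.0314) per the authors' deposited table, and the call was lost with the length, GC and expression trend subtracted (0.24, adjusted p 0.0584). The p53 relative Trp63 had a mean of 66.6 and lay at -0.46 (SE 0.282, interval -1.01 to 0.10, adjusted p 0.270) per the authors' deposited table.

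**Figure D3:**
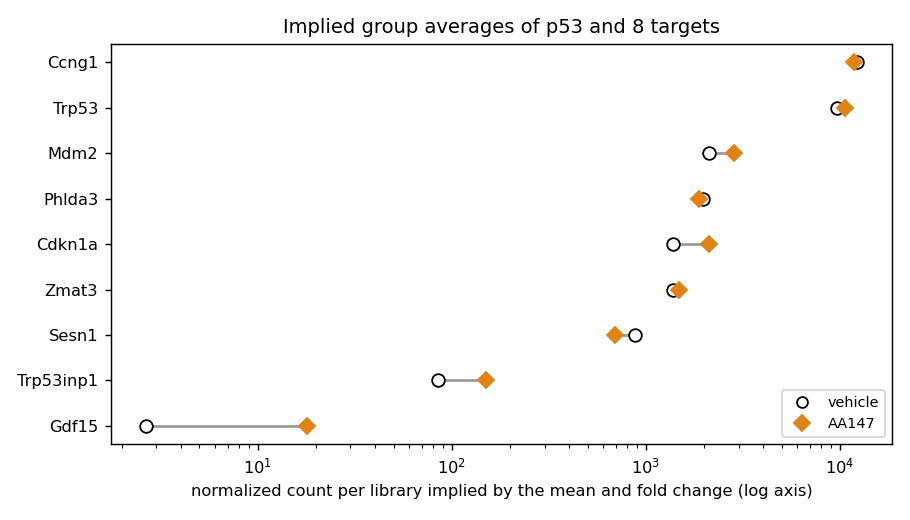
Normalized count per library (log x axis) that the authors' mean and fold change imply for vehicle (open circles) and AA147 (diamonds), for p53 and 8 target genes ordered by mean. The pairs are furthest apart for Gdf15, at 2.67 and 18.0, and nearly coincide for Ccng1, at 12199 and 11815.

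The standard errors of the 9 genes were ordinary for their abundance, from 0.870 to 1.16 times the median SE of genes whose mean was within a factor of 2. Per kilobase of canonical transcript, the mean level fell from Trp53 at 5443 and Ccng1 at 3419 to Cdkn1a at 902, Phlda3 at 836 and Mdm2 at 798. Sesn1 at 303 and Zmat3 at 181 followed, and Trp53inp1 at 18.6 and Gdf15 at 5.40 per kilobase were lowest. With no value per library, neighbours in this order cannot be compared against their spread. The called genes ran from the lowest of these levels up to that of Cdkn1a, and the pair with the highest levels was not called.

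The wider pathway was read from lists of general knowledge. The regulators of p53 held 24 measured genes of 25, of which 4 were called positive, 1 negative and 19 were not called, with a median of 0.05 per the authors' deposited table. The share called, 20.8%, was near the 20.2% of all genes tested. Among genes with a mean from 1000 to 10000, where most of this list lies, 12.9% were called positive and 14.4% negative. Chek2, a kinase that stabilises p53 after DNA breaks, rose by 0.45 (SE 0.088, adjusted p 6.87e-06) on the log2 scale in the authors' deposited table. The coactivator gene Crebbp at 0.30 (adjusted p 0.00192), the damage kinase gene Atr at 0.28 (adjusted p 0.0192) and Trp53bp2, which encodes a p53-binding protein that favours cell death targets, at 0.23 (adjusted p 0.0400) were also called positive in the authors' deposited table. With the length, GC and expression trend subtracted, the calls of Atr (0.17, adjusted p 0.181) and Trp53bp2 (0.22, adjusted p 0.0538) were lost. The call of Trp53bp2 was also lost with fold changes centred on abundant genes (adjusted p 0.0566). Rpl11, a ribosomal protein that can bind MDM2, was called negative at -0.38 (adjusted p 0.00698) per the authors' deposited table, and single ribosomal protein genes are uncertain because of their many processed copies. Usp7, a deubiquitinase of MDM2 and p53, lay at 0.06 (adjusted p 0.605) and the ligase gene Huwe1 at -0.10 (SE 0.227, adjusted p 0.826) per the authors' deposited table. The symbol of Cdkn2a was not found.

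Among direct targets outside the 9 genes, calls were as frequent in one direction as in the other. The 6 lists of such targets named 57 genes, of which 49 had an adjusted p, and 6 were called positive, 6 negative and 37 were not called in the authors' deposited table. Their share called was 24.5%, near the 20.2% of all genes tested, and their median was -0.01. Each list of arrest, cell death, DNA repair and metabolic targets had 1 positive and 1 negative call.

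For arrest, Gtse1, a G2 phase regulator that restrains p53, was called at 0.33 (adjusted p 2.99e-06), and the kinase gene Plk3 at -0.34 (adjusted p 0.00106), per the authors' deposited table. Plk2 and Ckap2 were not called, at 0.09 (adjusted p 0.337) and 0.14 (adjusted p 0.0754) per the authors' deposited table. For cell death, Pidd1, which builds the platform that activates caspase-2, lay at 0.33 (adjusted p 0.00718), and Siva1 at -0.31 (adjusted p 0.00108), per the authors' deposited table. The pore-forming death effector gene Bax was measured at -0.03 (SE 0.067, interval -0.16 to 0.10, adjusted p 0.805) per the authors' deposited table, and Ei24 at -0.06 (adjusted p 0.604). The sign of Bax turned positive, at 0.07, with the length, GC and expression trend subtracted, and it remained uncalled. The symbols of Pmaip1 and Perp were not found.

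For DNA repair, the Fanconi anaemia gene Fancc was called at 0.37 (adjusted p 0.0401), and the nucleotide excision nuclease gene Ercc5 at -0.36 (adjusted p 0.000395), per the authors' deposited table. The replication clamp gene Pcna at -0.13 (adjusted p 0.195) was not called in the authors' deposited table. For metabolism and autophagy, Cpt1c lay at 0.37 (adjusted p 0.0401) and the autophagy membrane protein gene Dram1 at -0.59 (SE 0.181, adjusted p 0.00837) per the authors' deposited table. The calls of Fancc and Cpt1c were lost when fold changes were centred on abundant genes, with adjusted p of 0.0503 for each. Gpx1 at 0.09 (adjusted p 0.384) and Tsc2 at 0.06 (adjusted p 0.596) were not called in the authors' deposited table.

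The secreted and surface targets held 5 genes with an adjusted p, of which 1 was called positive and 2 negative in the authors' deposited table. The share called, 60% of this short list, stands beside 20.2% of all genes tested. A further 2 genes of the list had no adjusted p. The matrix protein gene Thbs1 lay at -0.35 (adjusted p 1.65e-06) and the tetraspanin gene Cd82 at -0.49 (adjusted p 0.00393) per the authors' deposited table. The receptor genes Epha2 at -0.05 (adjusted p 0.722) and Notch1 at 0.66 (SE 0.689, adjusted p 0.571) were not called in the authors' deposited table. Of 3 noncoding targets, the nuclear paraspeckle RNA Neat1 was called at 0.42 (SE 0.071, adjusted p 9.70e-08) per the authors' deposited table. Pvt1 lay at 0.19 (adjusted p 0.119), and Trp53cor1, the RNA transcribed next to Cdkn1a, at 0.15 (SE 0.285, adjusted p 0.776) with a mean of 60.3 in the authors' deposited table.

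**Figure D4:**
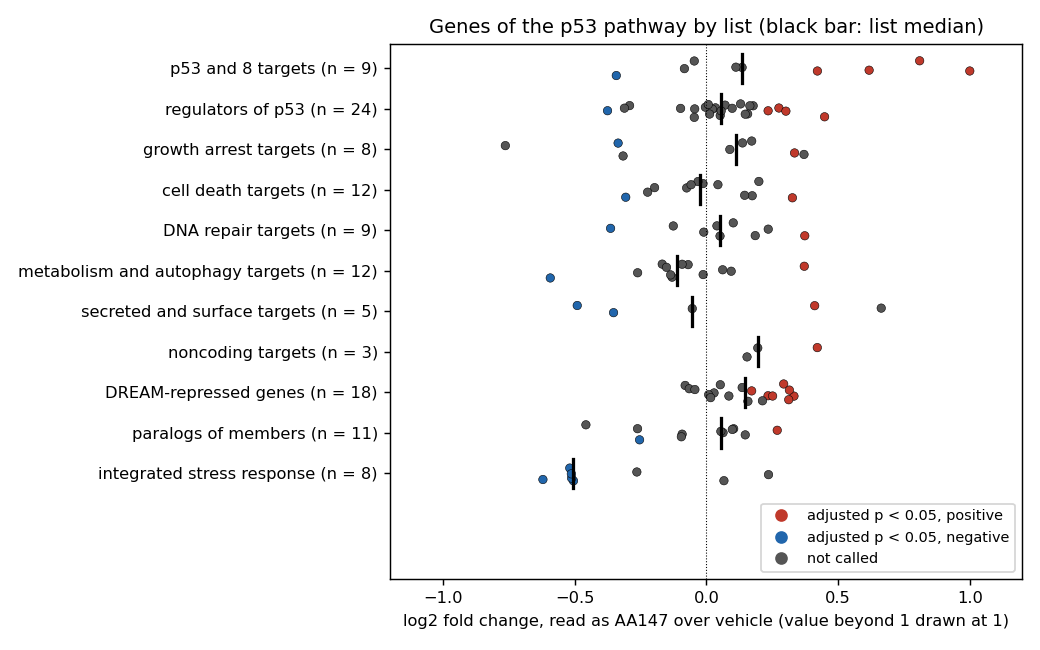
Log2 fold change (x axis, read as AA147 over vehicle; Gdf15, beyond 1, is drawn at 1) of each gene with an adjusted p, by list, with the list median as a black bar and colours for calls. The direct target lists hold 6 positive and 6 negative calls spread on both sides of 0, the DREAM list has its 7 calls on the positive side, and the integrated stress response list has its 5 calls on the negative side.

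p21 is known to act on the cell cycle through the DREAM repressor complex, so genes that DREAM represses were read beside Cdkn1a. All 18 were measured, and 7 were called positive, 0 negative and 11 were not called, with a median of 0.15 per the authors' deposited table beside 0.01 over all genes tested. Of all genes tested, 9.05% were called positive, and 12.9% of those with a mean from 1000 to 10000, where most of the list lies. The mitotic kinase genes Aurka at 0.33 (adjusted p 2.95e-05), Plk1 at 0.31 (adjusted p 1.92e-05) and Bub1 at 0.29 (adjusted p 2.64e-05) and their transcriptional activator Foxm1 at 0.31 (adjusted p 8.69e-06) had the largest values in the authors' deposited table. The proliferation marker gene Mki67 at 0.05 (SE 0.099, adjusted p 0.781) and the cyclin gene Ccna2 at 0.09 (SE 0.057, adjusted p 0.327) were not called in the authors' deposited table. Of the 18 genes, called or not, 15 had a positive value and 3 a negative one. Cdkn1a and the 7 called genes had values of the same sign, and a link between them was not tested. The values of some of these cell cycle genes were known when the list was written, so their direction is not independent support.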

How the data were processed

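Total RNA from 6 HT22 cultures was sequenced as non-stranded mRNA libraries, per the labels' protocols. The submitters' processing notes name DESeq2 and mouse build mm9; the aligner, counter and annotation are not given in the sources used here. The authors deposited a single table for the comparison. Its mean normalized count is a signal that the authors averaged over the libraries after scaling, per the file headers. The authors also fitted the log2 fold change and its SE, per the file headers. The test statistic, a score deposited by the authors, is the log2 fold change divided by its SE. The authors deposited each gene's p-value with its adjusted form, and a Benjamini-Hochberg adjustment recomputed here matched the latter over 13597 genes, and 2875 genes of 16472 had none. Depth per library is unknown, so precision is given by the SE.

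Computed here were 95% intervals (normal quantile), counts of calls by sign, medians, motif matches, shared exonic bases (GENCODE M39, GRCm39) and implied group averages, which take the mean as the average of 2 equal groups. No test between libraries could be run, although a count test had been planned for that case. The 15 lists, with 164 genes including the 9, came from general knowledge. The genes and lists were chosen with earlier results of these data known. Older symbols were matched through RefSeq. Named were the 9 genes, their measured paralogs and the overlapping neighbours that have a value. In each list, the 4 called genes with the largest absolute change and the 2 most abundant uncalled genes were also named, and others were named after their values were seen. Single values of some list genes are not reported here. Of 4 astrocyte markers, 0 had an adjusted p, and of 4 microglia markers 1 had one, Tmem119, which was called negative at -0.49. Of 12 reference genes, 2 were called positive and 2 negative, with a median of -0.00203. Alternatives were stricter thresholds, other adjustments, an interval null of 0.25, centring, subtraction of a trend with transcript length, GC and abundance (robust regression over 9620 genes, 90.5% of those with a mean of at least 100), and a limit of 100 on the mean. The code was tested on simulated data. The software was statsmodels 0.14.6, SciPy 1.17.1 and pandas 2.3.3 under Python 3.11.15.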

Additional observations from a re-analysis of the deposited data

How the results depend on the processing

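No paired analysis was possible because values of single libraries are missing from the table used here. Leaving out replicates, a replicate block and another count tool were not run for the same reason. Only centring (in 2 ways) and the trend can move a fold change. In the 26 values these gave for the 9 genes, 0 signs changed, with no trend value for Gdf15. Of the 70 values of the 9 genes under the 8 alternatives, 62 kept their side of the threshold. Trp53 (0.20) passed it with the trend subtracted. With a Bonferroni adjustment, Sesn1 (-0.34), Gdf15 (2.76) and Trp53inp1 (0.81) lost their calls, leaving 2 positive and 0 negative calls among the 9. Against an interval null of 0.25, Mdm2 (0.42), Sesn1 (-0.34), Gdf15 (2.76) and Trp53inp1 (0.81) lost theirs, leaving Cdkn1a, or 1 positive and 0 negative. Both settings are stricter by construction. For regulators and direct targets outside the 9 genes, there were 10 positive and 7 negative calls. These became 4 and 1 with Bonferroni, 0 and 0 against the interval null, and 6 and 7 at an adjusted p under 0.01. With centring on abundant genes they became 7 and 7. For all genes, there were 1230 positive and 1511 negative calls. They became 250 and 524 with Bonferroni, 147 and 324 against the interval null, and 753 and 1065 at an adjusted p under 0.01. Centring on abundant genes moved every fold change by 0.0132 and turned the calls over all genes into 1091 positive and 1617 negative. The reference genes had a median of -0.00203, so that centring on them moved values less. Of the other named genes, Bax (0.069) and Sesn3 (-0.012), both uncalled, changed sign with the trend subtracted, and 49 values of called genes lost their call under some alternative. Among the 9 genes, Gdf15 had the lowest mean, 10.3, and the largest SE, 0.830.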
